A study of Mus musculus with 3 samples.

Results

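A set of 8 genes of the acute-phase response was followed in polyadenylated RNA of mouse macrophages: the serum amyloid A genes Saa1, Saa2 and Saa3, the siderophore-binding lipocalin Lcn2, haptoglobin (Hp), ceruloplasmin (Cp), the long pentraxin Ptx3 and the lipopolysaccharide-binding protein Lbp. They were chosen by name, looked up through their symbols in the GENCODE M21 annotation, and all 8 were found among 55536 annotated genes. The cells were macrophages derived in culture from C57BL/6J bone marrow, an inbred mouse background. Every sample had the same history: 100 ng/ml lipid A for 12 hours, 12 hours without it after a wash, then 180 minutes with 100 ng/ml once more. Toll-like receptor 4 senses lipid A, a part of bacterial lipopolysaccharide. Other label fields call the agent lipoprotein A and class it as a protein, and the labels leave this conflict unresolved. The 3 samples are replicates 1, 2 and 3 of a single group and carry the same donor record, so the spread between them may be technical. Cells never exposed, or exposed once, were not analysed here. What follows is therefore levels and their spread, with no contrast between conditions. Library totals were 23418690, 36863611 and 37728915 expected counts in replicates 1, 2 and 3.

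The acute-phase response is the change in plasma proteins that follows infection or injury. The liver makes most of these proteins under the control of interleukin 6 and interleukin 1, acting through STAT3, C/EBP factors and NF-kappaB. Some are also made by macrophages and other cells at the site of inflammation. Serum amyloid A proteins are small lipid-binding proteins: in the mouse Saa1 and Saa2 are the main liver forms, and Saa3 is the form made by macrophages and adipose tissue. Lipocalin 2 captures bacterial siderophores, the iron carriers of microbes. Haptoglobin binds free haemoglobin, ceruloplasmin is a copper ferroxidase that helps load iron on transferrin, Ptx3 recognises microbes and engages complement, and Lbp hands lipopolysaccharide to Cd14.

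Saa1, Saa2 and Saa3 lie with Saa4 in a stretch of 42316 bases on chromosome 7 (GRCm38, which the files call mm10). Saa3 occupies positions 46711998 to 46715700 and Saa1 46740497 to 46742980, both on the minus strand, and Saa2 46751790 to 46754313 on the plus strand. Their coding sequences are each 366 bases long. Saa1 and Saa2 are 95.1% identical over them, and Saa1 and Saa3 are 74.1% identical. The first 90 coding bases are shown as a stretch in which the 3 genes can be compared. They were read from the GENCODE M21 transcripts, and capitals mark bases that differ from Saa1.
Saa1: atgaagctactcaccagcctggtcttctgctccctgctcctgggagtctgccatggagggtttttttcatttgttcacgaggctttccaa
Saa2: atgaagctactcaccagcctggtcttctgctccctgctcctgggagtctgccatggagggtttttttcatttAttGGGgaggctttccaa
Saa3: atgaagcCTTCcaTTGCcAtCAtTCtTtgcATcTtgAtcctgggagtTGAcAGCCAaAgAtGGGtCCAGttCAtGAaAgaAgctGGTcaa
Saa2 differs from Saa1 at 4 of these positions and Saa3 at 44. Saa3 differs more densely here than over the full coding sequence, where 95 of 367 aligned columns differ from Saa1. The longest identical run there was 73 bases for Saa1 and Saa2 and 58 for Saa1 and Saa3. Over all annotated transcripts, 46.8% of the 31-base sequences of Saa1 and 44.5% of those of Saa2 also occur in another gene, nearly always the other of this pair, so the division of counts between Saa1 and Saa2 is uncertain. The share was 7.56% for Saa3, 0.901% for Cp, 0.853% for Lbp, 0.254% for Hp and 0% for Lcn2 and Ptx3.

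Sequences upstream of the start were in the RefSeq table (GRCm38.p6) for 6 of the 8 genes, not for Hp or Lbp. The 250 bases before the RefSeq start were searched. They are shown for the serum amyloid A genes, whose levels lay furthest apart, without the last 43 bases in Saa2 and the last 24 in Saa3, which GENCODE M21 places in an exon. Capitals mark matches to the C/EBP motif TTGCNNAA, searched on both strands.
Saa1, chr7:46742981-46743230, minus strand: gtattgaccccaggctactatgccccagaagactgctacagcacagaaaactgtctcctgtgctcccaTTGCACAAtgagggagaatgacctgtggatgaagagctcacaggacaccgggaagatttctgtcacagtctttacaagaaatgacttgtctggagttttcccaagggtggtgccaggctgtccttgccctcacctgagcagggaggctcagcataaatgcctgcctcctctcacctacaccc
Saa2, chr7:46751583-46751789, plus strand: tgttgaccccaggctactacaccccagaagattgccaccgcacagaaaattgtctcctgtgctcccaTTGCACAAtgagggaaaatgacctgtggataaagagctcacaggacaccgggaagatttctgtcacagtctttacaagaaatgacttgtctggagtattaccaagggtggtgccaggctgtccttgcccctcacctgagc
Saa3, chr7:46715701-46715926, minus strand: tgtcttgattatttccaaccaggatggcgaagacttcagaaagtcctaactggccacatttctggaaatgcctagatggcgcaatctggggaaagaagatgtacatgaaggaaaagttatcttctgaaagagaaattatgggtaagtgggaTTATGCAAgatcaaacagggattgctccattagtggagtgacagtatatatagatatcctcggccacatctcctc
Over the full windows Saa1 and Saa2 were 94.8% identical, and Saa1 and Saa3 44.7%. The C/EBP motif was present once in the window of each of Saa1, Saa2, Saa3, Lcn2 and Ptx3 and once in the second of the overlapping windows of Cp, against 9.56% of all 32851 windows of this length. The motif lay 182 to 175 bases before the start in Saa1, 183 to 176 in Saa2, 99 to 92 in Saa3 and 216 to 209 in Lcn2. The Lcn2 window, 32387740 to 32387989, overlaps exons of annotated Lcn2 transcripts. Among them is the protein-coding Lcn2-201, which starts at 32387797, so the motif lies closer to that start. The same windows held no match to the STAT motif TTCNNNGAA (7.02% of all windows) or to the NF-kappaB consensus (3.90%). The TATA box TATAAA (12.4% of all windows) matched in the second Cp window, on both strands at overlapping positions. That window, 19956999 to 19957248, runs past the GENCODE starts of Cp-202 (19957054), Cp-201 (19957069) and Cp-204 (19957111). It ends before that of Cp-203 (19957284). Its C/EBP match (70 to 63 bases before the RefSeq start) and TATA matches (27 to 20) lie after the first 3 of these starts. The first Cp window held no match to any of these motifs. A match is a description of letters and no evidence of binding.

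Saa3 stood far above the other 7 genes, Cp and Lcn2 were in the range of common macrophage messages, and the rest were at a few TPM or below (TPM is a level per transcript length, scaled to the same total in each library). Of the 8 members, 4 were at or above 1 TPM in all 3 replicates (Saa3, Cp, Lcn2 and Hp), a share near the 44.3% of protein-coding genes that were. In bulk RNA, fewer cells of a type and less RNA per cell cannot be told apart. By mean TPM the order was Saa3, Cp, Lcn2, Hp, Lbp, Saa1, Ptx3 and Saa2. It turned in 2 places: without replicate 2 Lcn2 (134 TPM) stood above Cp (123 TPM), and in the FASTQ-made tables Saa2 (0.173 TPM) stood above Ptx3 (0.128 TPM). The median over the 8 was 2.85 TPM, beside 0.342 TPM over all protein-coding genes. The TPM ranges of neighbours in this order did not overlap for Saa3 and Cp, Lcn2 and Hp, Hp and Lbp, and Lbp and Saa1. Hp and Lbp were close in replicate 2, at 2.35 and 2.02 TPM. Cp overlapped Lcn2, and Saa1, Ptx3 and Saa2 overlapped one another. With 3 samples an exact two-sided sign-flip test cannot give p below 0.25, so no p is given for these ratios.

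**Figure D1:**
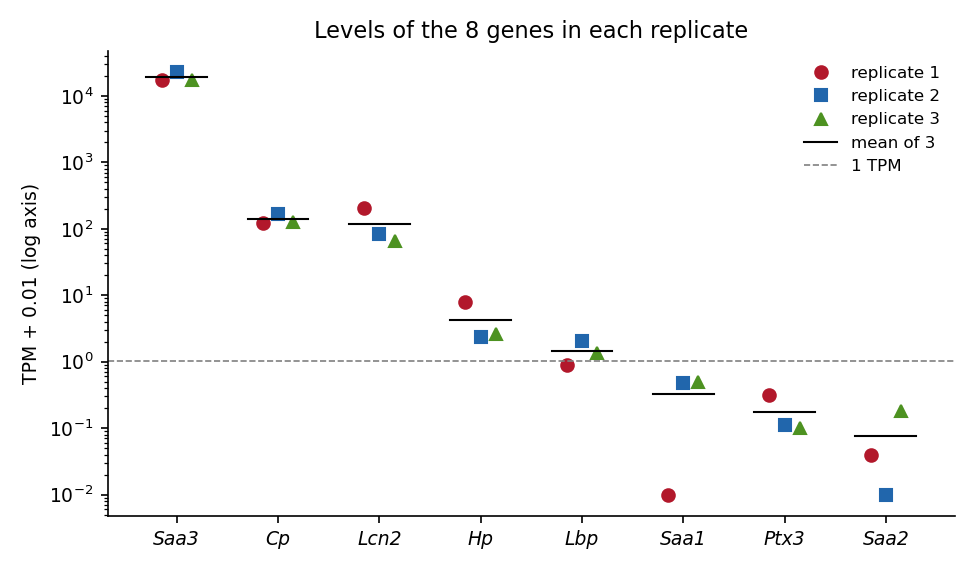
TPM of each gene in replicates 1, 2 and 3, with 0.01 added so that a value of 0 can be drawn on the log axis. Points are replicates, the short black lines are means of 3 and the dashed line is 1 TPM. Saa3 lies between 17225 and 22961.5 TPM, and Saa1, Ptx3 and Saa2 lie below 0.5 TPM in every replicate.

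Saa3 (ENSMUSG00000040026.8) was at 17587, 22961.5 and 17225 TPM in replicates 1, 2 and 3, or 19258 ± 3213 TPM (SD, n = 3). Replicate 2 was the highest and the other two were close. Among 22028 protein-coding genes only 2 had a higher mean, and Saa3 took 1.76%, 2.30% and 1.72% of all TPM. Within the 8 genes it made up 98.6% ± 0.425 of the summed TPM. It exceeded Cp, the next in order, by 7.19, 7.08 and 7.10 in log2 TPM ratio, a mean of 7.12 ± 0.06 (SD, n = 3). The transcript Saa3-201 carried 99.9% of the Saa3 TPM, and Saa3-202 and Saa3-203 held the remainder.

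The liver forms of serum amyloid A were near the detection limit in the same libraries. Saa1 had 0, 4 and 5 counts in replicates 1, 2 and 3 and Saa2 had 1, 0 and 1, where a count of 0 allows up to 3 counts. These correspond to 0, 0.47 and 0.48 TPM for Saa1 and 0.03, 0 and 0.17 TPM for Saa2. Over the 3 libraries Saa3 had 373919 counts and Saa1 and Saa2 together 11. Their share of the counts of these 3 genes was 0.00294% (exact 95% Clopper-Pearson interval 0.00147% to 0.00526%), and Saa3 had 33993 counts for each of theirs (interval 18998 to 68095). The interval covers counting error only, and the reads were not collapsed to molecules. The uncertain split between Saa1 and Saa2 does not enter their sum. The fourth gene of the locus, Saa4, had 0, 0 and 1 counts.

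Lcn2 (ENSMUSG00000026822.14, chromosome 2, 32384633 to 32388252, minus strand) was at 203, 83.0 and 65.9 TPM in replicates 1, 2 and 3, from 2109, 1366 and 1091 counts. Replicate 1 stood apart from the other two. Scaled to library size by the trimmed mean of M values (TMM), it was 2.54 times replicate 2 (exact 95% interval 2.37 to 2.72) and 3.15 times replicate 3 (2.92 to 3.39). Replicate 2 in turn was 1.24 times replicate 3 (1.14 to 1.34). The mean was 117 ± 74.6 TPM (SD, n = 3), and 74.4 TPM without replicate 1. The standard deviation of log2 CPM (counts scaled to the library total) was 0.88, where counting alone gives 0.04 and the median expressed gene had 0.17. It was above that of 98.5% of the 10510 genes that reached 1 TPM in all replicates. The protein-coding transcript Lcn2-201 carried 96.8% ± 1.56 of Lcn2 TPM. Against Cp, Lcn2 was higher in replicate 1 and lower in the other replicates, with log2 ratios of Cp to Lcn2 of -0.75, 1.03 and 0.93.

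Hp (ENSMUSG00000031722.10, chromosome 8, 109575128 to 109579172, minus strand), the haemoglobin scavenger, was low, at 7.92, 2.35 and 2.58 TPM in replicates 1, 2 and 3 from 137, 65 and 72 counts. The replicates fell in the same pattern as those of Lcn2, with replicate 1 above the other two. It was 3.47 times replicate 2 (exact 95% interval 2.56 to 4.74) and 3.10 times replicate 3 (2.31 to 4.18) after TMM scaling, and replicates 2 and 3 did not differ beyond counting error (ratio 0.893, 0.628 to 1.27). The mean was 4.28 ± 3.15 TPM (SD, n = 3), and 2.465 TPM without replicate 1. Its standard deviation of log2 CPM, 0.99, exceeded that of 99.1% of expressed genes, with 0.16 from counting alone. Lcn2 exceeded Hp by 4.68, 5.14 and 4.68 in log2 TPM ratio, with a standard deviation of 0.27.

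Cp (ENSMUSG00000003617.16, chromosome 3, 19957054 to 20009145, plus strand), the ferroxidase, was at 120, 170 and 126 TPM in replicates 1, 2 and 3. Replicate 2 was the highest, as for Saa3, and replicates 1 and 3 were close. The mean was 139 ± 26.9 TPM (SD, n = 3), with 5248, 12214 and 8887 counts. The spread of log2 CPM was 0.27 for Cp and 0.21 for Saa3, above those of 73.3% and 60.7% of expressed genes.

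Cp was the member with the most divided transcripts, 16 in the annotation. Ceruloplasmin is known in a secreted form and in a form held at the membrane by a glycolipid anchor, which differ at the end of the protein through alternative splicing. The annotation gives the near-complete coding transcripts 2 different stop codons, at 19992523 to 19992525 and at 20005556 to 20005558, and which form each encodes was not determined here. Transcripts with the first stop, Cp-202 and Cp-203, held 40.9%, 54.0% and 56.0% of Cp TPM in replicates 1, 2 and 3. Those with the second, led by Cp-204 and Cp-201, held 18.9%, 15.4% and 12.9%. Among transcripts with either stop, the first took 75.9% ± 6.67 (SD, n = 3) in the alignment-made tables and 83.7% ± 4.37 in the tables made from FASTQ files. The second stop lies where Hps3 runs on the opposite strand (overlap 19995945 to 20009145). Hps3 was at 23.6 ± 4.59 TPM, and whether reads were counted by strand is not stated, so the share of the second stop is uncertain.

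Transcripts annotated as retained introns were a larger part of Cp in replicate 1. The 7 of them held 32.7%, 16.4% and 12.0% of Cp TPM in replicates 1, 2 and 3, and 41.1%, 20.7% and 18.0% in the FASTQ-made tables. Cp-203 went the other way, with 7.31%, 24.0% and 27.6%, while Cp-202 stayed at 33.6%, 30.0% and 28.4%. In the FASTQ-made tables Cp-203 held 16.1%, 35.0% and 40.0% and Cp-202 27.4%, 30.3% and 28.7%. By mean share Cp-203 (30.4%) stood above Cp-202 (28.8%) there, so which of them led depended on the route. Cp-213 also went the other way, with 6.40%, 13.9% and 18.5%, but its mean share of 12.9% was 0.991% in the FASTQ-made tables, so its level depends on the route of quantification. Replicate 1 is also the shallowest library. Over the 6110 expressed genes with a retained-intron transcript, the median share was 4.12%, 3.00% and 1.82%, and 53.7% of these genes were highest in replicate 1. The gap between replicate 1 and the next replicate was 16.2 percentage points for Cp, larger than in 98.6% of these genes, and 20.3 points, larger than in 97.8%, in the FASTQ-made tables. The part of library depth or RNA quality in this was not tested.

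**Figure D2:**
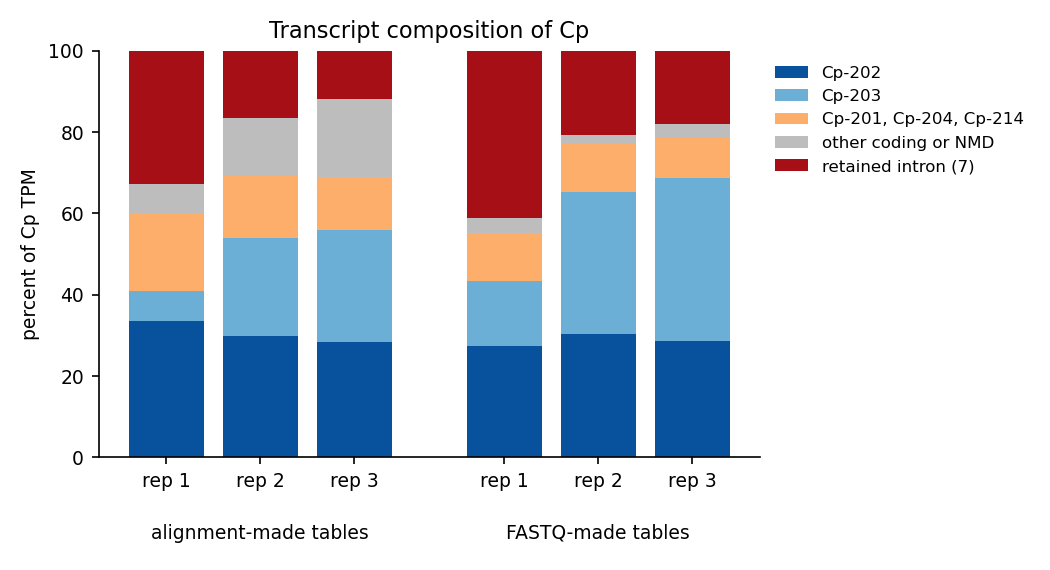
Percent of Cp TPM by transcript in replicates 1, 2 and 3, on the left from the alignment-made and on the right from the FASTQ-made tables. Each bar sums to all Cp TPM; the red part is the 7 retained-intron transcripts, 32.7% in replicate 1 against 16.4% and 12.0% in the alignment-made tables.

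The 2 remaining members bind microbial surfaces and were low, Lbp near 1 TPM and Ptx3 close to the floor. Lbp (ENSMUSG00000016024.9, chromosome 2, 158306493 to 158332852, plus strand) was at 0.89, 2.02 and 1.33 TPM in replicates 1, 2 and 3, from 32, 116 and 76 counts. Replicate 2 was 2.20 times replicate 1 (exact 95% interval 1.48 to 3.37) and 1.51 times replicate 3 (1.12 to 2.04). Ptx3 (ENSMUSG00000027832.5, chromosome 3, 66219910 to 66225805, plus strand) was at 0.31, 0.10 and 0.09 TPM, from 8, 4 and 4 counts. Its replicate 1 was 3.29 times replicate 2, with an interval of 0.882 to 14.9, so a difference was not detectable at this depth.

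Which replicate was highest differed among the members. Lcn2 and Hp were highest in replicate 1, and Saa3, Cp and Lbp in replicate 2. On the log2 CPM scale replicate 1 lay 1.00 above the mean for Lcn2 and 1.14 above it for Hp, higher than for 99.4% and 99.6% of expressed genes. It lay -0.05 from the mean for Saa3, -0.19 for Cp and -0.54 for Lbp. In replicate 2 Saa3 was 0.23 and Cp 0.31 above the mean, while Lcn2 was at -0.35 and Hp at -0.65. These 5 genes each had the same highest replicate with DESeq2 size factors, with library totals, on the log2(TPM + 1) scale and in the FASTQ-made tables. All of these settings use the same libraries. Ptx3, with 8, 4 and 4 counts in replicates 1, 2 and 3, had too few to order the replicates. No correlation is given over 3 samples.

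Lcn2 and Hp are stored with other proteins in the granules of neutrophils, and markers of that cell type were read beside them. The neutrophil list had 4 of 13 genes at 1 TPM or more in all replicates, beside 44.3% of protein-coding genes. The list summed to 116, 222 and 102 TPM in replicates 1, 2 and 3. The gene with the largest part of that sum was the receptor gene Csf3r, at 98.3, 107 and 87.6 TPM in replicates 1, 2 and 3. Its mean was 97.6 ± 9.59 TPM (SD, n = 3), and the collagenase gene Mmp8 was at 5.19 ± 1.69 TPM. The defining markers Ly6g and Retnlg had 0 counts in every library. The calprotectin genes S100a8 and S100a9 were at 6.84, 39.4 and 5.36 TPM and at 4.20, 58.0 and 5.10 TPM. The granule genes Ngp and Ltf were at 0.39, 7.78 and 0.28 TPM and at 0.14, 1.73 and 0 TPM, and Camp at 0.76, 0.97 and 0.24 TPM. S100a8, S100a9, Ngp and Ltf were highest in replicate 2, and Camp had 6, 12 and 3 counts, too few to order the replicates. The part of neutrophils in the levels of Lcn2 and Hp was not tested.

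**Figure D3:**
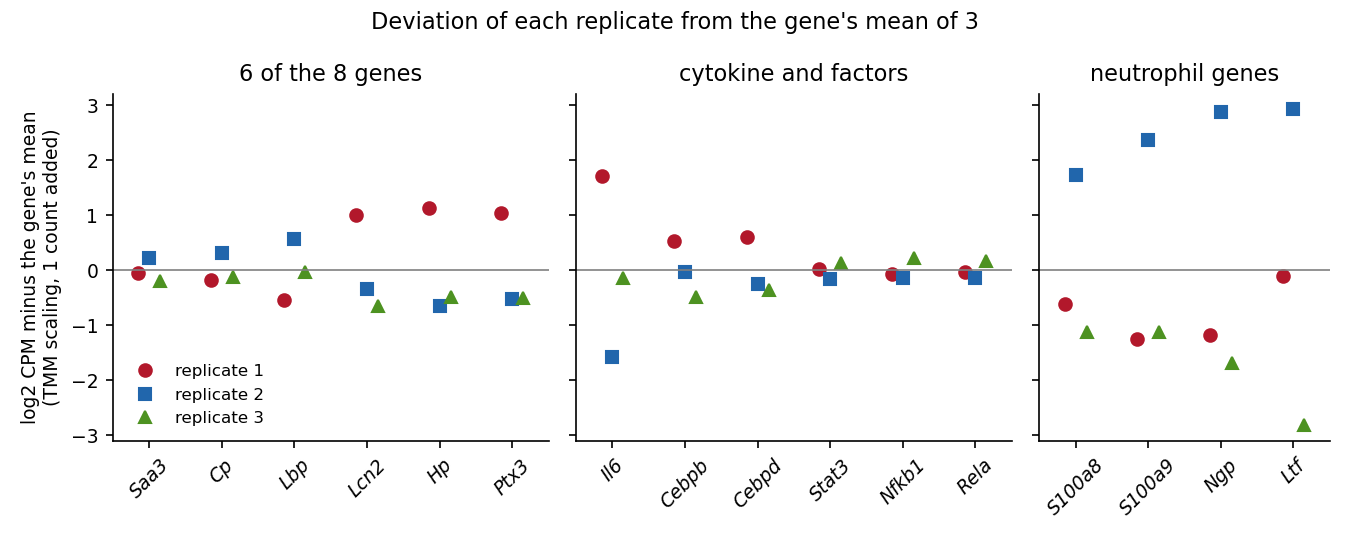
Difference between each replicate and the gene's mean of 3, in log2 CPM after TMM scaling with 1 count added, for 6 of the 8 genes, for Il6, Cebpb, Cebpd, Stat3, Nfkb1 and Rela, and for 4 neutrophil genes. Replicate 1 is the highest for Lcn2 and Hp, and replicate 2 for Saa3, Cp, Lbp and the neutrophil genes. Ptx3, with 8, 4 and 4 counts in replicates 1, 2 and 3, had too few to order them.

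Macrophage markers, which the cells' label calls for, were high: 14 of 15, beside 44.3% of all protein-coding genes, were at 1 TPM or more in all replicates. The highest were the lysozyme gene Lyz2 at 10782 ± 581 TPM (SD, n = 3), C1qb, the lysosomal glycoprotein gene Cd68 at 2292 ± 109 TPM and the receptor gene Adgre1 at 2254 ± 458 TPM. All 11 hepatocyte markers, among them the albumin gene Alb and the liver transcription factor gene Hnf4a, had 0 counts in every library, which allows up to 3 counts each. Of 10 stromal and fibroblast genes, 0 reached 1 TPM in all replicates, beside 44.3% of protein-coding genes. The 10 genes summed to 1.62, 2.29 and 3.31 TPM. Pdgfrb was the highest at 1.37 ± 0.643 TPM, and Dcn, Col3a1 and Col1a1 had means of 0.29, 0.193 and 0.18 TPM.

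Of the other acute-phase proteins of liver and plasma, 5 of 22 reached 1 TPM in all replicates, beside 44.3% of protein-coding genes. Of the 22, 11 had 0 counts in every library, beside 34.9% of protein-coding genes at 0 in every library. The complement gene C3 was at 695, 290 and 648 TPM and the complement factor B gene Cfb at 679, 415 and 506 TPM in replicates 1, 2 and 3, so replicate 2 was the lowest for both. They were followed by the serine protease inhibitor genes Serpina3g at 72.8 ± 20.8 TPM (SD, n = 3) and Serpina3f at 8.20 ± 2.29 TPM, whose counts may be divided with related copies. The genes at 0 include the short pentraxins Crp and Apcs, the fibrinogen chains Fga, Fgb and Fgg, the iron hormone gene Hamp and Serpina3n. In the FASTQ-made tables Crp was at 0.0279, 0.175 and 0 TPM in replicates 1, 2 and 3. There the orosomucoid genes Orm2 (2.53, 1.82 and 2.40 TPM) and Orm3 (2.17, 1.01 and 1.05 TPM) also reached 1 TPM in all replicates. In the alignment-made tables Orm2 was at 0.61, 0 and 0.31 TPM and Orm3 at 0.12, 0 and 0 TPM. Orm2 and Orm3 were named after their values were seen. The mean of C3 was 544 ± 222 TPM (SD, n = 3).

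Signals and factors known to induce acute-phase genes were present. Of 21 genes, 16 reached 1 TPM in all replicates, beside 44.3% of protein-coding genes. The 21 also include receptors and negative regulators of these signals, so this is not a count of inducers alone. The cytokine genes Tnf, Il1b and Il1a were at 983 ± 252, 494 ± 91.1 and 436 ± 126 TPM (SD, n = 3) and Nfkb1, an NF-kappaB subunit gene, at 247 ± 30.5 TPM. Il6, the main inducer in liver, stood at 159 TPM in replicate 1, 16.4 TPM in replicate 2 and 45.4 TPM in replicate 3. The C/EBP factor genes Cebpb and Cebpd were at 66.7, 46.5 and 33.0 TPM and at 11.8, 6.59 and 5.97 TPM. Stat3 was at 91.0, 79.2 and 96.3 TPM, and the NF-kappaB genes Nfkb1 and Rela were at 230, 229 and 282 TPM and at 84.1, 82.4 and 97.4 TPM. By log2 CPM, Il6, Cebpb and Cebpd were highest in replicate 1 and Stat3, Nfkb1 and Rela in replicate 3. Of the 16 expressed genes of the list, 8 were highest in replicate 1, 1 in replicate 2 and 7 in replicate 3, beside 35.2%, 32.0% and 32.8% of all expressed genes. Il6, Cebpb, Cebpd, Stat3 and Rela were named after their values were seen.

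Of 16 genes of receptors and partners of the 8 proteins, 12 were at 1 TPM or more in all replicates, beside 44.3% of protein-coding genes. Those for lipopolysaccharide handed on by Lbp were all present, although Lbp itself was near 1 TPM. Cd14, the coreceptor, was at 474, 390 and 982 TPM in replicates 1, 2 and 3, Ly96 at 94.3 ± 22.3 TPM (SD, n = 3) and Tlr4 at 18.4 ± 4.46 TPM. Proteins reported to bind serum amyloid A were also transcribed: the formyl peptide receptor gene Fpr2 was at 203 ± 53.7 TPM, Tlr2 at 289 ± 74.2 TPM, the scavenger receptor genes Cd36 and Scarb1 at 77.8 ± 59.9 and 33.8 ± 4.99 TPM and the ATP-gated channel gene P2rx7 at 22.4 ± 5.08 TPM. C1qb, C1qc and C1qa, whose products Ptx3 binds, were at 2899 ± 410, 2113 ± 290 and 866 ± 119 TPM.

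The receptors that take up Lcn2 and Hp were near or at the floor. Slc22a17, a receptor gene for lipocalin 2, had 2, 4 and 0 counts in replicates 1, 2 and 3, and Lrp2, another, had 0 in each. Cd163, the scavenger receptor for haptoglobin bound to haemoglobin, had 3, 10 and 2 counts, or 0.05, 0.09 and 0.02 TPM. The broad endocytic receptor gene Lrp1 was at 134 ± 33.5 TPM (SD, n = 3).

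**Figure D4:**
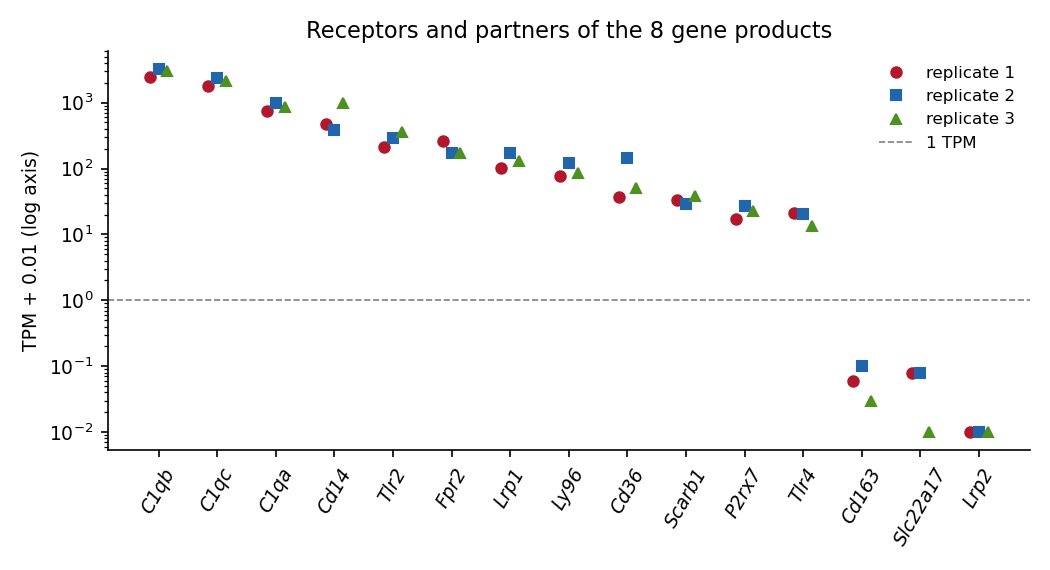
TPM of 15 receptor and partner genes in replicates 1, 2 and 3, with 0.01 added so that 0 can be drawn on the log axis; the dashed line is 1 TPM. C1qb, C1qc and C1qa stand highest, and Cd163, Slc22a17 and Lrp2 lie below 1 TPM in every replicate.

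Of 14 genes of iron handling, on which Lcn2, Hp and Cp bear, 10 were at 1 TPM or more in all replicates, beside 44.3% of protein-coding genes. The ferritin genes Fth1 and Ftl1 were at 56509 ± 12507.5 and 17481 ± 1203 TPM (SD, n = 3), Slc11a1, a metal transporter of phagosomes, at 560 ± 69.6 TPM and Hmox1, which encodes a haem oxygenase, at 242 ± 44.2 TPM. Reads of Ftl1 can be divided with related copies. The range of Saa3 overlapped that of Ftl1, at 18539, 16172 and 17731 TPM in replicates 1, 2 and 3.

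The route of quantification moved the level of Saa3 and left its place at the top. In the FASTQ-made tables Saa3 was at 11654, 17094 and 14369 TPM in replicates 1, 2 and 3, or 0.663, 0.744 and 0.834 of the alignment-made values. The median expressed gene had 0.715, 0.878 and 0.981. Replicate 2 stayed the highest, while replicate 1 became the lowest instead of replicate 3. For Lcn2 these tables gave 131, 67.6 and 61.9 TPM and for Cp 99.2, 147 and 120 TPM.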

How the data were processed

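The deposited tables rest on the mm10 assembly and M21 annotation, per the lists that came with the files. Gene and transcript tables were made by the authors from a transcriptome alignment and hold expected counts and TPM, per the file headers. A second transcript table per sample was made from FASTQ files and holds estimated counts and TPM, per the file headers. For the aligner and counter, names and versions: not given in the sources used here; the same holds for strand. The gene tables also hold bounds of an interval of TPM, whose level is not stated.

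Of 81881 entries, 55536 matched GENCODE M21 genes by identifier. The rest were left out; their share of counts was 0.178% in replicate 1, 0.107% in replicate 2 and 0.115% in replicate 3. The 3 counts that a count of 0 allows equal 0.128, 0.0815 and 0.0796 CPM in turn. Levels are the deposited TPM as mean ± SD; genes are called expressed at 1 TPM or more in all 3 replicates. Spread is the SD of log2 CPM with 1 count added, from expected counts scaled by TMM in edgeR 4.0.16 (R 4.3.3) over the 11992 genes kept by filterByExpr after rounding. Intervals of replicate ratios are exact conditional binomial intervals at 95% and, like floors, cover counting error only. The design has 1 group, so no differential test was run. The spread measure was also run on simulated counts with the same dispersion for every gene. That run cannot show how the percentiles behave where dispersion differs between genes. Identity was planned on proteins; coding and upstream sequences were aligned instead, with Biopython 1.88; 31-base sequences were compared on both strands with all GENCODE M21 transcripts. Alternatives were FASTQ-made tables, DESeq2 1.42.0 size factors, library totals, log2(TPM + 1), other thresholds and leaving out each replicate.

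The members and lists were chosen with earlier results of these data known. Named genes are the 8 members, the 4 highest of each list, the members' receptors and, from the neutrophil list, S100a8, S100a9, Camp, Ngp and Ltf, with the exceptions stated. Also named, outside this rule, were Saa4, Hps3, Ly6g, Retnlg, Alb, Hnf4a, Crp, Apcs, Fga, Fgb, Fgg, Hamp and Serpina3n. No rule set in advance chose them. Which replicate is highest under each scaling was compared after seeing the data. Other listed genes enter the counts only, and some are not reported here.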

Additional observations from a re-analysis of the deposited data

How the results depend on the processing

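The number of members at the level threshold in all replicates was 4, and it was 5 at 0.5 TPM, 3 at 5 TPM, 4 in the FASTQ-made tables and 4 to 5 on leaving out each replicate. The Saa3 share of summed TPM was 98.5% to 98.9% on leaving out a replicate and 92.2% as a share of plain counts, which favour long transcripts. As ratios of plain counts, the log2 values were 3.85 for Saa3 to Cp, 2.50 for Cp to Lcn2, 4.09 for Lcn2 to Hp and 0.39 for Hp to Lbp, against 7.12, 0.40, 4.83 and 1.44 in TPM. By counts Lbp exceeded Hp in replicate 2 (116 against 65) and replicate 3 (76 against 72). The FASTQ-made tables gave 6.88 for Saa3 to Cp. On leaving out a replicate, these ratios ran from 7.09 to 7.14 for Saa3 to Cp, 0.09 to 0.98 for Cp to Lcn2, 4.68 to 4.91 for Lcn2 to Hp and 0.59 to 2.05 for Hp to Lbp. With all genes that had a count in place of expressed genes, the spread percentile fell to 82.2 for Lcn2, 85.0 for Hp, 42.2 for Cp and 34.5 for Saa3; under each other setting it stayed at or above 97.4 for Lcn2 and 98.4 for Hp. Depth limits Saa1, Saa2 and Ptx3, each with at most 8 counts in a library. No paired analysis was possible because the labels give a single group.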

Other observations

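The bounds that the authors' gene tables give for TPM did not enclose the TPM listed for Saa3 in any replicate. In replicate 1 Saa3 was listed at 17587 TPM with bounds of 16173 and 16407, in replicate 2 at 22961.5 with 22001 and 22218, and in replicate 3 at 17225 with 16512 and 16700. Among the 10510 expressed genes the listed TPM lay outside its bounds in 23.3%, 13.9% and 13.7% in replicates 1, 2 and 3. For this reason these bounds were not used as errors.

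The genes of transferrin, which carries the iron that ceruloplasmin helps to load, and of its receptor were both lowest in replicate 1. Trf was at 74.1, 196 and 135 TPM and Tfrc at 32.8, 77.6 and 54.6 TPM in replicates 1, 2 and 3. Trf and Tfrc were named after their values were seen, and no test was run on them.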
